A study of Rattus norvegicus with 61 samples.

Results

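The genes described here encode the proteins of the cytosolic ribosome. They are the rows of both count tables whose NCBI Gene ID carries a rat symbol of the form Rpl or Rps followed by a number and at most 1 letter (a, x, y or l), together with Rplp0, Rplp1, Rplp2 and Rpsa, without pseudogene and LOC symbols. That rule found 76 genes, 45 of the large and 31 of the small subunit. The same 76 stand in the striatal table of 14231 genes and in the cerebellar table of 14129 genes. All 76 were among the 12267 striatal genes with enough reads for a test, and 75 were among the 11946 cerebellar genes; Rpl3l was too low there. Genes of ribosomal or ribosome-bound proteins with another kind of symbol, such as Fau and Rack1, are outside the rule and serve below as a comparison.

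The cytosolic ribosome is built from a large subunit, which forms peptide bonds, and a small subunit, which decodes the message. Each protein is present in about 1 copy per ribosome, apart from the stalk proteins Rplp1 and Rplp2, so the genes are generally expressed together. Their messages are short and abundant and usually begin with a run of pyrimidines, the terminal oligopyrimidine (TOP) element, through which mTOR signalling controls their translation. In brain tissue the messages are found in neuron cell bodies and also in neuronal processes and glia.

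The libraries came from tissue punches of striatum and cerebellum of male Sprague-Dawley rats. Each rat carried a polymer implant under the skin for 28 days, beginning on postnatal day 28. Implants held 4-OH-PCB52, a hydroxylated metabolite of the polychlorinated biphenyl PCB52, at 0% (sham), 1% (low), 5% (medium) or 10% (high). The striatum had 8 sham, 6 low, 8 medium and 8 high libraries, and the cerebellum had 7 sham, 8 low, 8 medium and 8 high libraries, with 1 library per rat and region; 29 rats had both regions. All 4 groups shared strain, sex, age and the implant itself, the rats came in 4 cohorts that are not given per rat, and the 3 exposed groups of a region were compared with the same sham libraries. Libraries are named below by group and animal number.

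Library totals ran from 5850199 to 10944066 counted reads in the striatum and from 5420458 to 10994625 in the cerebellum. Gabra6, a GABA receptor subunit of cerebellar granule cells, stood at a median of 838 CPM (reads scaled to a common library size) in 29 cerebellar libraries, and Drd1, the D1 dopamine receptor of striatal projection neurons, at 358 CPM in 27 striatal libraries. 5 libraries lay more than 2 log2 units below their region's median in the markers of its own neurons. Striatum sham 17, low 20 and high 13 had 8.25, 22.9 and 29.5 CPM of Drd1, and cerebellum low 22 and medium 40 had 1.79 and 199 CPM of Gabra6. Cerebellum low 22 thus went against its label in this marker. Results are given with these libraries, and their values without them follow where they are stated.

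The start sites of the ribosomal protein genes are shown first, because the TOP run is the feature by which this gene family is best known. In the RefSeq promoter table (GRCr8, a newer build than the rn6 of the counts), 61 of the 76 genes had an entry; 1 of them, Rps27a, had 2 entries and was left out. The printed stretch is 20 bases before and 30 bases from the annotated start, on the gene's strand, and capitals mark the longest pyrimidine run that touches the bases within 5 of the start. Rps23 and Rps19 are among the members that moved most with the family across libraries in both regions and Rplp1 in the striatum, Rpl4, Rpl3, Rpl5 and Rpl22 among those that moved least, and Rps27l is a paralog of Rps27.
Rps23, chr2:23814497-23814546, + strand: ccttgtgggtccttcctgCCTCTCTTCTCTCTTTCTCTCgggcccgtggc
Rplp1, chr8:71290843-71290892, - strand: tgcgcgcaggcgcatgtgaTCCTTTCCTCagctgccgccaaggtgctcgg
Rps19, chr1:89608668-89608717, + strand: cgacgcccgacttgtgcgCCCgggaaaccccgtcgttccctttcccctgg
Rpl4, chr8:73566457-73566506, + strand: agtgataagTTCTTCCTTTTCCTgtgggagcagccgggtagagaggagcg
Rpl3, chr7:113507961-113508010, - strand: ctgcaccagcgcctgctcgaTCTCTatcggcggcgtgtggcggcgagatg
Rpl5, chr14:1995196-1995245, - strand: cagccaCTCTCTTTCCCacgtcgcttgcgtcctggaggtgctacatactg
Rpl22, chr5:168117941-168117990, + strand: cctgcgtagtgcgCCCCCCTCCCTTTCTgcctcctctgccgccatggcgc
Rps27l, chr8:76443638-76443687, + strand: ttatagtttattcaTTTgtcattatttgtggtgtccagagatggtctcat

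A pyrimidine run of at least 8 bases at the start stood in 36 of the 60 ribosomal protein genes used (60%), against 9.01% of 27457 promoters of all genes. The letters CTTTC, in the 35 bases from 15 before to 20 after the start, stood on the gene's strand in 28 of the 60 (46.7%), against 4.26% of all promoters. On the opposite strand CTTTC stood in 1 of the 60 (1.67%) and in 4.4% of all promoters. CTTTCC, which contains CTTTC, stood on the gene's strand in 26.7% of the 60 and in 1.5% of all promoters, and on the opposite strand in 1.67% and 1.5%. Long runs are present both in Rps23 and Rplp1 and in Rpl4, Rpl5 and Rpl22, and short ones both in Rps19 and in Rpl3. A run that the table does not show at its start says only that the annotated start lacks it.

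In most libraries the 76 genes together took a small and steady share of the reads, and in a few they took several times that share. The striatal median was 2.14% of counted reads, with a lowest value of 1.73% in sham 17 and a highest of 6.28% in high 28. The cerebellar median was 1.56%, with a lowest value of 1.35% in medium 57 and a highest of 18.1% in high 43. Behind it came high 28 at 13.1% and high 59 at 10.6%, then sham 48 at 8.08% and medium 24 at 7.26%. Counting error is small beside these differences: the largest half-width of a 95% Wilson interval was 0.0164 percentage points in the striatum and 0.0245 in the cerebellum, and these intervals cover counting error only.

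**Figure D1:**
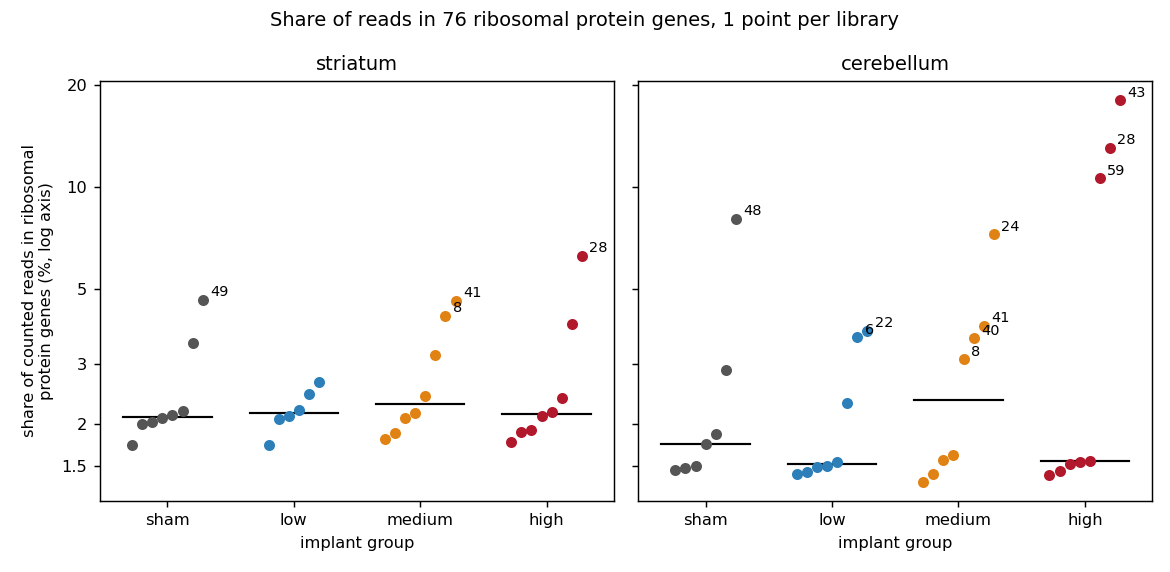
Share of counted reads in the 76 ribosomal protein genes (percent, log axis) by implant group, with striatum on the left and cerebellum on the right; each point is 1 library, the line is the group median, and numbers name the animals whose mean over the genes lay more than 1 log2 unit above the region median. Most points lie near 2% in the striatum and near 1.5% in the cerebellum, and the labelled libraries occur in sham as well as in exposed groups, up to 18.1% in cerebellum high 43.

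By exposure, the striatal share had a median of 2.09% in sham (range 1.73% to 4.65%), 2.15% in low (1.74% to 2.66%), 2.28% in medium (1.80% to 4.62%) and 2.14% in high (1.77% to 6.28%). The cerebellar share had a median of 1.75% in sham (1.46% to 8.08%), 1.52% in low (1.42% to 3.76%), 2.35% in medium (1.35% to 7.26%) and 1.55% in high (1.41% to 18.1%). All exposed groups overlapped sham in both regions. The libraries whose mean over the genes lay more than 1 log2 unit above the region median are called raised below, a description chosen from the measured values, so they are given 1 by 1 and are not tested as a group. In the striatum they were sham 49, medium 8, medium 41 and high 28. In the cerebellum they were sham 48, low 6, low 22, medium 8, 24, 40 and 41, and high 28, 43 and 59. Cerebellum low 22 and medium 40 are also low in granule cell markers. The values next to the boundary were 0.914 in striatum high 59 and 1.04 in striatum medium 8, and 0.887 in cerebellum sham 1 and 1.03 in cerebellum medium 8.

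Single members differed widely in level. In the striatum the highest mean levels were 1076 CPM for Rplp1, a stalk protein of the large subunit that recruits elongation factors, 938 CPM for Rps6, the small subunit protein phosphorylated downstream of mTOR, and 766 CPM for Rpl8. In the cerebellum they were 1600 CPM for Rps6, 1399 CPM for Rpl8 and 1203 CPM for Rpl13a. CPM is not divided by message length, so these values order reads and not molecules. The lowest mean levels in the striatum were 1.02 CPM for Rpl3l, the muscle form of Rpl3, 11.3 CPM for Rps27l, a paralog of Rps27, and 85.9 CPM for Rpl39. The lowest tested in the cerebellum were 16.3 CPM for Rps27l, 119 CPM for Rpl22 and 130 CPM for Rpl39.

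Members with known roles outside the ribosome or with paralogs had wide ranges too. Rpl5 and Rpl11, which with 5S RNA form the particle that can bind Mdm2, ran from 224 to 866 CPM and from 125 to 606 CPM in the striatum, and from 208 to 3372 CPM and from 86.3 to 2780 CPM in the cerebellum. Rplp0, the base of the stalk, ran from 383 to 1502 CPM in the striatum and from 274 to 5572 CPM in the cerebellum. Rpsa, a small subunit protein also known as a laminin receptor, ran from 356 to 1487 CPM in the striatum and from 272 to 5986 CPM in the cerebellum. Rpl10, which joins the large subunit late, ran from 221 to 833 CPM and from 187 to 4349 CPM. Rps4x, the X-linked form of Rps4, ran from 161 to 663 CPM and from 121 to 2603 CPM. Rps27a, made as a fusion with ubiquitin, ran from 131 to 828 CPM and from 161 to 6388 CPM. In the cerebellum the highest of each of these 7 ranges was the library high 43.

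In every raised library, all 75 members with a mean of at least 10 CPM stood above their own regional median. The median fold over the members was 2.23 in striatum sham 49, 2.04 in medium 8, 2.35 in medium 41 and 3.39 in high 28. In the cerebellum the median fold was 6.25 in sham 48, 2.37 in low 6, 2.69 in low 22, 2.0 in medium 8, 5.55 in medium 24, 2.31 in medium 40 and 2.50 in medium 41. It was 12.3 in high 28, 25.2 in high 43 and 9.22 in high 59. The choice of these libraries used the mean over the same members, so the common direction is fixed by that choice and only the order among members is described next.

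The members did not stand above their medians by the same factor, and some members kept their place across most raised libraries while others changed it. Rps19, a small subunit protein needed for small subunit maturation, had a cerebellar median of 250 CPM and stood at 1943 CPM in sham 48, 1763 CPM in medium 24, 2930 CPM in high 59, 4164 CPM in high 28 and 8057 CPM in high 43. Rpl4, a large subunit protein with a long internal extension, had a cerebellar median of 469 CPM and stood at 1610, 1637, 2442, 3079 and 4389 CPM in the same libraries. So Rpl4 lay above Rps19 at the region median and below it in each of these 5 libraries. In the most raised library, cerebellum high 43, Rps19 was 32.1-fold and Rpl4 9.35-fold above its median.

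Rpl41, the smallest ribosomal protein, was among the 5 members of largest rise in 9 of the 10 raised cerebellar libraries, with 4587 CPM in high 43 against a median of 150 CPM. Rps19 and Rps14, a protein of the small subunit platform, were among the 5 largest in 6 of the 10 each. Rpl4 was among the 5 smallest rises in 9 of the 10, and Rpl3, which lies near the peptidyl transferase centre, and Rpl22 in 8 of the 10 each. Rpl17, whose reads are treated separately below, was also among the 5 smallest in 8 of the 10. In the 4 raised striatal libraries Rps29 was among the 5 largest in 3, and Rpl17 and Rps27l were among the 5 smallest in all 4. Rpl41 was among the 5 largest in 1 of these 4, and Rps29 in 1 of the 10 cerebellar ones. Rps21 was among the 5 smallest in 3 of the 4 striatal libraries but among the 5 largest in 4 of the 10 cerebellar ones. In cerebellum sham 48 the largest rises were 8.55-fold for Rpl41, 7.75 for Rps19 and 7.53 for Rps20, and the smallest 3.43 for Rpl4 and 3.88 for Rpl3. In medium 24 they were 7.03 for Rps19 and 6.99 for Rps14 against 3.13 for Rpl17 and 3.49 for Rpl4. In high 28 they were 16.6 for Rps19 and 16 for Rps14 against 6.56 for Rpl4 and 6.64 for Rps27l, so Rps19 stood near the top and Rpl4 near the bottom in a sham, a medium and a high library. In striatum high 28 Rps23, Rps27 and Rps29 stood highest above their medians, 3.98, 3.98 and 3.97-fold, and Rpl17, Rps27l and Rpl4 least, 2.23, 2.28 and 2.53-fold. The range of folds within 1 library was widest in cerebellum high 43, from 9.35 for Rpl4 to 35.8 for Rps15a.

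**Figure D2:**
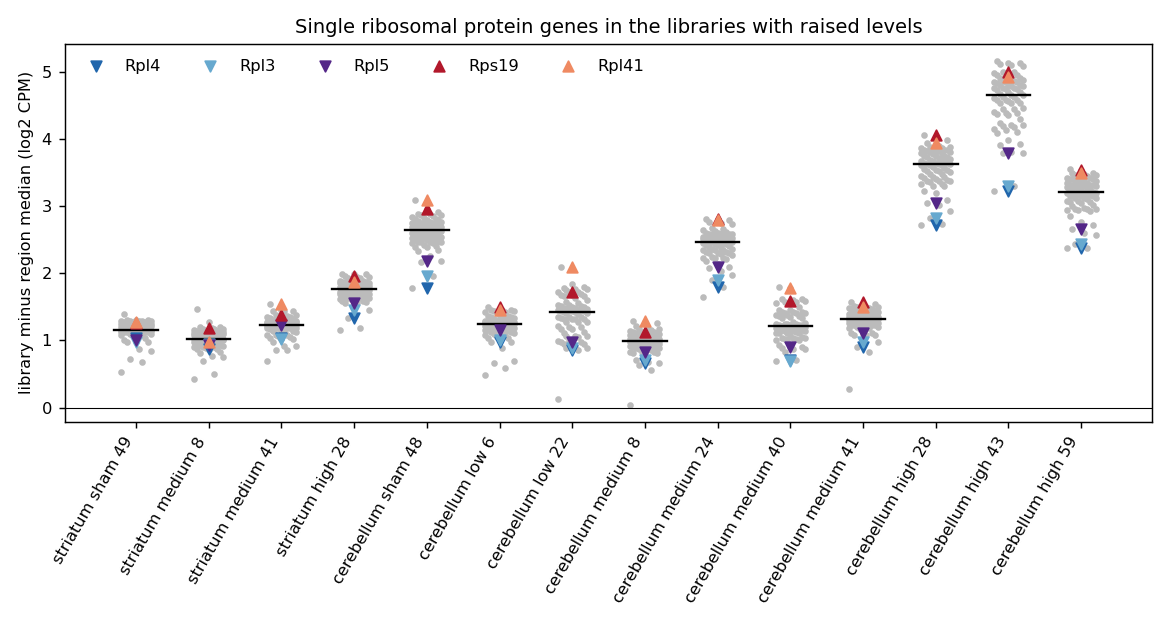
Difference of each ribosomal protein gene from its own regional median (log2 CPM) in the 14 raised libraries; each grey point is 1 of 75 genes, the black line is their median, and Rpl4, Rpl3, Rpl5, Rps19 and Rpl41 are marked. All points lie above 0; Rpl4 and Rpl3 lie below the median line in each library and Rps19 lies above it in each.

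Slopes over every library, the raised ones included, again placed Rps19 near the top and Rpl4 near the bottom in both regions. They share the raised libraries with the folds above and are not independent of them. For each member the log2 level was regressed on the mean of the other members, so a slope of 1 means that a gene moved exactly with the family, above 1 more and below 1 less. Slopes ran from 0.68 to 1.17 in the 30 striatal libraries and from 0.72 to 1.13 in the 31 cerebellar libraries. Lowest in the cerebellum were Rpl4 at 0.72 ± 0.01 (SE), Rpl3 at 0.76 ± 0.01, Rpl5 at 0.83 ± 0.01, Rpl6 at 0.85 ± 0.01, Rpl22 at 0.86 ± 0.02 and Rpl7a at 0.89 ± 0.01, all of the large subunit. Highest were Rps19 at 1.13 ± 0.01, Rps16 at 1.12 ± 0.02, Rpl41 at 1.11 ± 0.02, Rps14 and Rps23 at 1.1 ± 0.01 and Rps29 at 1.1 ± 0.02.

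In the striatum the lowest slopes belonged to Rps27l at 0.68 ± 0.08, Rpl4 at 0.78 ± 0.03, Rpl17 at 0.79 ± 0.14, Rpl7a at 0.85 ± 0.04, Rps6 at 0.85 ± 0.03 and Rpl3 at 0.86 ± 0.02. The highest belonged to Rps29 at 1.17 ± 0.06, Rplp1 at 1.17 ± 0.07, Rps19 at 1.16 ± 0.03, Rps15 at 1.15 ± 0.03, Rpl30 at 1.14 ± 0.09 and Rps23 at 1.14 ± 0.03. Across the 75 members the striatal and cerebellar slopes had a Spearman rho of 0.88 and a Pearson r of 0.85, a correlation across genes, which are not independent replicates. Without the raised libraries the rho was 0.59, and without the 5 libraries low in their region's neuron markers it was 0.87. Without the raised libraries Rpl4 had a slope of 0.74 ± 0.04 in the cerebellum and 0.72 ± 0.05 in the striatum. Rps19 then had slopes of 1.28 ± 0.08 and 1.18 ± 0.07. Other slopes changed side of 1 without those libraries, 20 of 75 in the cerebellum and 10 of 75 in the striatum, among them cerebellar Rplp1 from 1.07 to 0.95.

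**Figure D3:**
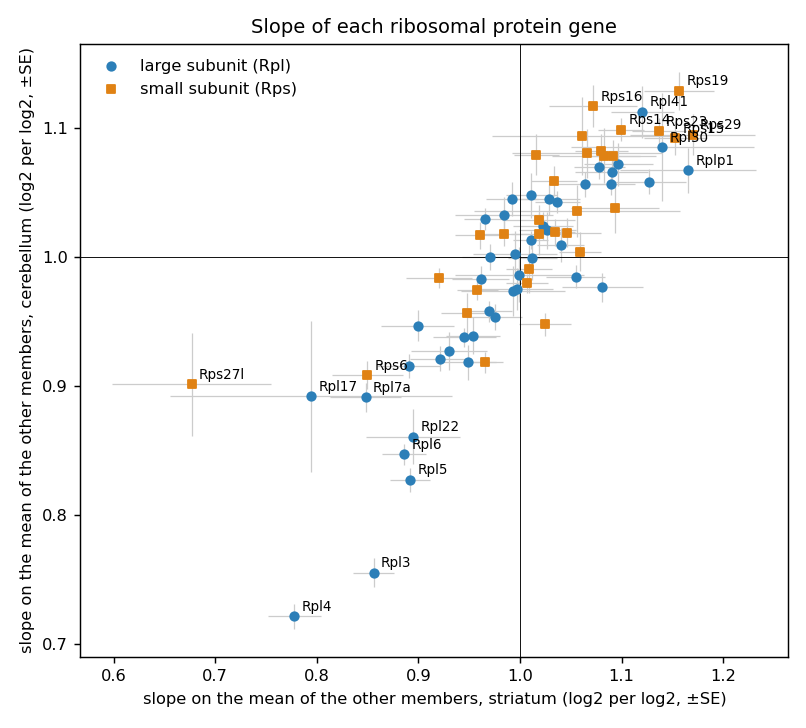
Slope of each of 75 ribosomal protein genes on the mean of the other members (log2 per log2), striatum on the horizontal and cerebellum on the vertical axis, with standard errors as bars and the 6 highest and 6 lowest members of each region named; circles are large subunit genes and squares are small subunit genes. Rpl4 and Rpl3 lie lowest on the cerebellar axis, Rps19 lies highest, and the points run from lower left to upper right.

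The letters at the start sites did not separate high from low slopes in full. Leaving out Rpl3l and Rps27l, the 28 members with CTTTC at the start had a median slope of 1.03 in the cerebellum (0.83 to 1.12), and the 30 without it had 1.00 (0.72 to 1.13). In the striatum the medians were 1.04 (0.89 to 1.17) and 0.99 (0.78 to 1.16). The ranges of the 2 sets of genes overlap nearly throughout. The highest slope without CTTTC was that of Rps19 in both regions. Its printed stretch does hold CTTTC, which begins at the last base of the searched window and was therefore not counted.

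Other gene groups stood with the ribosomal protein genes in these libraries. Fau, which encodes a ubiquitin-like fusion of Rps30, had the closest profile outside the rule in both regions, with a Pearson r to the mean of the members of 0.997 over the 30 striatal and 0.999 over the 31 cerebellar libraries. Atp5mc2, a subunit of ATP synthase, had 0.988 and 0.998. Of the other tested genes, 4.32% in the striatum and 18.3% in the cerebellum had an r above 0.9, and 3.03% and 17.7% had an r below -0.9. By Spearman rho, Fau had 0.988 in the striatum and 0.949 in the cerebellum, and Atp5mc2 0.937 and 0.952. The part of the raised libraries in these values was not tested, and all genes share library depth and composition.

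Among lists written down for this comparison, the mean of 72 nuclear-encoded respiratory chain genes lay above its regional median in all 4 raised striatal libraries (0.84 to 1.41 log2 units) and in all 10 raised cerebellar libraries (0.98 to 3.64). The mean of 30 proteasome genes lay above it by 0.57 to 0.92 and by 0.54 to 2.0. The mean of 20 elongation factor and other TOP genes lay above it by 0.46 to 0.79 and by 0.36 to 1.84, with 17 to 19 and 14 to 19 of the 20 genes above their own medians. The mean of 37 ribosome biogenesis genes lay above it in all 4 striatal libraries, with 23 to 31 of the 37 above their own medians. In the cerebellum this mean lay above its regional median in 7 of the 10 libraries (-0.07 to 0.46). There 11 to 26 of the 37 were above their own medians. The mean of 17 mTOR pathway genes lay above it in 1 of the 4 and in 1 of the 10. In cerebellum high 43 the ribosomal protein genes stood at 4.62 log2 units, the respiratory chain at 3.64, the proteasome at 2.0, the TOP list at 1.84 and ribosome biogenesis at 0.46.

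Some cell type markers, and depth, moved with the raised libraries of the cerebellum too, while other lists did not. The mean of the 14 granule cell markers was below its cerebellar median in all 10 raised cerebellar libraries, with differences of -4.92 to -0.44 log2 units and 0 to 4 of the 14 above their own medians. Their summed level ran from 4663 to 10070 CPM in sham, 727 to 10462 in low, 3211 to 9941 in medium and 4886 to 9684 in high. The mean of the 13 measured of 14 microglia markers was above its cerebellar median in all 10, by 0.66 to 1.63, with 7 of the 13 above their own medians in high 43 and 9 to 13 in the others. Their summed level ran from 229 to 745 CPM in sham, 242 to 743 in low, 254 to 556 in medium and 243 to 598 in high. Other cerebellar lists went different ways in their Pearson r with the mean of the members over the 31 libraries. Purkinje cell markers had 0.15 (Spearman rho 0.37) and oligodendrocyte markers 0.18 (0.35). Astrocyte markers had -0.64 (-0.20) and endothelial markers -0.66 (-0.14). In the striatum the mean of the 24 projection neuron markers was above its median in 3 of the 4 raised libraries (-0.28 to 0.30), and that of the microglia markers in all 4 (0.04 to 0.36). Log2 total reads had a Pearson r of 0.75 with the mean of the members over the cerebellar and 0.19 over the striatal libraries (Spearman rho 0.59 and 0.02). In bulk punches, fewer cells of a type and less RNA per cell cannot be told apart, and the part of these markers and of depth in the rise was not tested.

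The comparisons of each loading with sham ask whether the metabolite loaded into the implant changed these genes. Sham rats carried the implant too, so an effect of the implant itself was not tested. In edgeR's quasi-likelihood test with Benjamini-Hochberg adjustment, 0 of 76 members in the striatum passed an adjusted p of 0.05 at low, medium or high loading, and 0.0% of all 12267 genes did. In the cerebellum 0 of 75 members passed at any loading, and again 0.0% of all 11946 genes. DESeq2 and limma-voom with sample quality weights also called 0 members in each comparison. In the striatum they called 0 of all genes too. At an unadjusted p under 0.05 the counts of members were 0 in all comparisons except cerebellum high, where 73 of 75 were below it, beside 1394 of all genes. That count was 0 without the single library high 43, 6 when only the groups compared were fitted and 34 with a block for runs of 15 animal numbers.

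Cerebellar Rps19 shows what lies behind that count. It had a lowest, median and highest level of 218, 280 and 1943 CPM in sham and of 221, 248 and 8057 CPM in high. The high group had the lower median and the higher top value, and the groups overlapped throughout except for the top of high. The fitted log2 fold change was 1.92 ± 0.79 (SE; edgeR adjusted p = 0.417). Rpl4 had 426, 504 and 1610 CPM in sham and 405, 461 and 4389 CPM in high, with a fold change of 1.18 ± 0.50 (edgeR adjusted p = 0.417).

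The median log2 fold change over the members was 1.78 in cerebellum high, beside -0.0256 over all genes tested, and all 75 were positive. The smallest p among the members belonged to Rpl35a at 2.07 ± 0.75, Rpl36a at 1.98 ± 0.72 and Rpl34 at 2.01 ± 0.73, each with an edgeR adjusted p of 0.417. Without the raised libraries the median was -0.30, an alternative that is partly circular because the members chose those libraries. With limma-voom and quality weights, which give discordant libraries less weight, it was -0.0875, with 0 members at an unadjusted p under 0.05. With DESeq2 it was 1.84, with 75 of 75 members at an unadjusted p under 0.05 and a smallest DESeq2 adjusted p of 0.0938 among the 71 members that were given one. Leaving out the single library high 43 gave 0.97, and leaving out sham 48 gave 2.47. Without the 2 cerebellar libraries low in granule cell markers it was 1.78.

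In the other comparisons the members' median was nearer 0. It was -0.44 in cerebellum low and 0.10 in cerebellum medium, where -0.0252 and -0.00106 were the medians over all genes. Lowest by p in cerebellum low were Rpl17 at -0.86 ± 0.63, Rpl30 at -0.69 ± 0.72 and Rps4x at -0.58 ± 0.65, and in cerebellum medium the first was Rps21 at 0.44 ± 0.73. In the striatum the members' medians were -0.21 at low, 0.19 at medium and 0.20 at high loading, beside -0.00135, 0.0162 and 0.0184 over all genes. At low loading the smallest p belonged to Rpl3l at -0.63 ± 0.49, Rpl17 at -0.37 ± 0.30 and Rpl36a at -0.30 ± 0.30. Rps28 had the largest value at medium (0.39 ± 0.31) and high loading (0.49 ± 0.31), with lowest, median and highest levels of 47.4, 84.1 and 170 CPM in sham and 66.3, 82.9 and 319 CPM in high. Single libraries turned the direction of these medians: it was -0.14 in striatum high without high 28, 0.25 in cerebellum low without sham 48, and in cerebellum medium -0.31 without medium 24, -0.0257 without sham 32, -0.0203 without sham 3 and -0.0191 without sham 34. With limma-voom the median was 0.0711 in striatum low, where 72 of 76 members were positive against 1 of 76 in edgeR, -0.00383 in striatum high and -0.0286 in cerebellum medium. Without the raised libraries it was -0.30 in cerebellum medium. The exposed groups share their sham libraries, so the values of 1 member at 3 loadings are not independent.

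When libraries were scaled on the members alone, so that a fold change is relative to the other members, 0 members passed at any loading in either region. On that scale 0 of all 12267 striatal and 0 of all 11946 cerebellar genes passed too. At least 73 of the members lay within 0.2 log2 units of 0 in each of the 6 comparisons. Scaling on the members centres them near 0, so this closeness is partly fixed by the scale. This scaling was added after the data had been seen. The interaction of region with high versus sham, which asks whether the change at high loading differs between cerebellum and striatum, had a median of 1.57 over the members. 0 of 76 members and 0.00793% of all 12616 genes passed edgeR's test. An unadjusted p under 0.05 was found for 57 of 76 members and for 1015 of all genes. DESeq2 also called 0 members. The smallest p belonged to Rpl34 at 1.79 ± 0.75, Rpl36a at 1.75 ± 0.74 and Rps15a at 1.83 ± 0.78 (edgeR adjusted p = 0.591 each). In the paired fit with the animal as a replicate block the median was 0.49, with 0 members at an unadjusted p under 0.05.

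The contrast of cerebellum with striatum in sham rats asks how the regions differ without exposure. On the usual scale 1 of 76 members passed, while 43% of all 12616 genes did, so a smaller share of members than of all genes was called. The 1 member was Rpl3l, with 0.34 to 2.23 CPM in the 8 striatal sham libraries and a fold change of -2.95 ± 0.71 (edgeR adjusted p = 0.000527). Without the raised libraries 31 members passed, 1 of them higher in cerebellum, as did 8217 of 12599 genes.

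Scaled on the members alone, 14 of 76 members differed between the regions (18.4%), close to the 19.1% of all genes on that scale. This scaling takes variation shared by the members out of them and puts it on the other genes. The shares of members and of all genes are thus not like for like. 9 were lower in cerebellum than in striatum and 5 were higher. Rplp1 had levels relative to the mean of the members of 1.23 to 2.04 log2 units in the 8 striatal and 0.63 to 1.01 in the 7 cerebellar sham libraries, with no overlap. Its difference was -1.02 ± 0.14 (edgeR adjusted p = 1.44e-07). Rplp2, its partner on the stalk, differed by -0.41 ± 0.12 (adjusted p = 0.0107), while Rplp0, the base on which both sit, was not called.

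Rpl41 ran from 0.46 to 0.75 in striatal and from -0.23 to 0.30 in cerebellar sham libraries, a difference of -0.72 ± 0.14 (edgeR adjusted p = 6.74e-05). Rps2, at the entry of the message channel, ran from 0.63 to 1.09 and from 0.20 to 0.53 (-0.66 ± 0.13, adjusted p = 9.24e-05). Rps21 differed by -0.66 ± 0.16, Rps27 by -0.49 ± 0.13, Rps19 by -0.39 ± 0.14 and Rpl13 by -0.34 ± 0.12. Rpl3l differed by -2.84 ± 0.75 on this scale.

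Higher in cerebellum was Rpl18, which ran from -0.91 to -0.41 in striatal and from -0.07 to 0.16 in cerebellar sham libraries, a difference of 0.73 ± 0.12 (edgeR adjusted p = 6.11e-06). Rpl24, which forms a bridge to the small subunit, ran from -0.46 to -0.27 and from 0.16 to 0.34 (0.58 ± 0.12, adjusted p = 0.000135). Rps27a differed by 0.44 ± 0.15 and Rpl7 by 0.34 ± 0.12. In the paired fit with the animal as a replicate block 10 members passed: Rpl13, Rps19, Rps27a and Rpl7 were among those lost, and Rpl17 at 0.45 was gained; 2537 of 12595 genes passed on that scale (20.1%). Without the raised libraries 41 members passed beside 60.6% of all genes, and without the 5 libraries low in neuron markers 14 passed beside 20.5%.

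Rats with high levels in 1 region tended to have high levels in the other. Over the 29 rats the mean of the members in striatum and cerebellum had a Pearson r of 0.67 and a Spearman rho of 0.67, given without a p because the members were chosen with results known. High 28 stood 1.75 log2 units above the striatal and 3.62 above the cerebellar median. Medium 41 stood at 1.23 and 1.35, and medium 8 at 1.04 and 1.03. High 59, sham 48 and medium 24 stood at 0.91, 0.70 and 0.61 in striatum and at 3.22, 2.66 and 2.48 in cerebellum.

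The agreement had exceptions and rested on the raised rats. High 43, the highest cerebellar library at 4.62, stood at 0.20 in striatum, and medium 40 and low 22, whose cerebellar libraries are low in granule cell markers, stood at -0.05 and 0.18 in striatum beside 1.28 and 1.42. Without the 2 rats farthest from the striatal median, high 28 and medium 41, r was 0.62. Without the rats with a raised library, 20 rats remained, with an r of -0.0125 and a rho of 0.27. Without the rats with a library low in its region's neuron markers r was 0.68 over 24 rats. Within exposure groups r was 0.83 in sham (n = 7; rho 0.46), 0.34 in low (n = 6; rho 0.2), 0.61 in medium (n = 8; rho 0.74) and 0.71 in high (n = 8; rho 0.67). Within runs of 15 animal numbers it was 0.74, 0.90, 0.21 and 0.98. These runs are a division of the animal numbers, and whether they match the cohorts is not known.

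**Figure D4:**
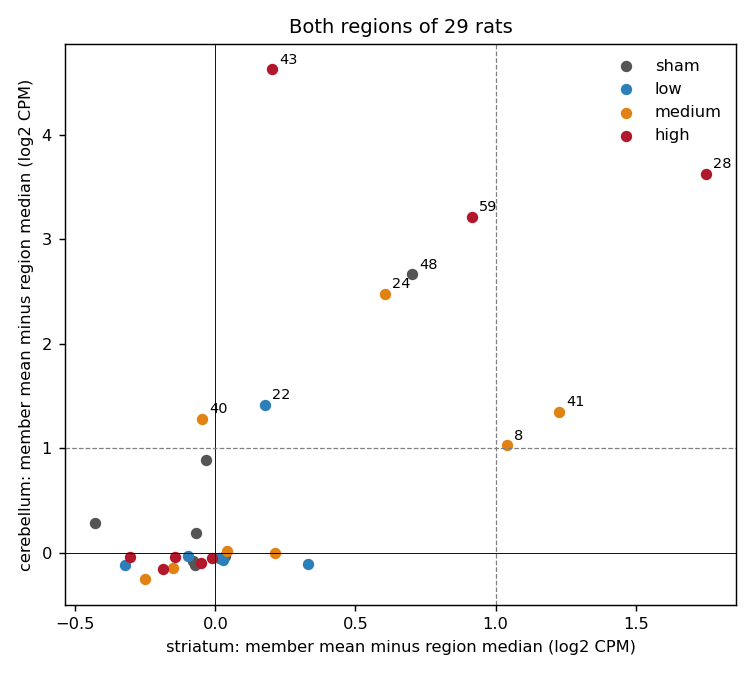
Mean over the ribosomal protein genes of each rat, as the difference from the region median (log2 CPM), striatum on the horizontal and cerebellum on the vertical axis; each point is 1 of 29 rats, colours are implant groups, dashed lines mark 1 log2 unit, and raised animals are numbered. High 28 lies at upper right, high 43 lies at the top near 0.20 on the striatal axis, and the unnumbered rats lie below both dashed lines, the highest of them sham 1 at 0.89 on the cerebellar axis.

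Gene by gene, the test permuted the cerebellar libraries among rats of 1 exposure group (100000 permutations, two-sided, Benjamini-Hochberg adjustment over 11658 genes). All 75 members passed with a positive r, beside 31.5% of all genes, and their median r was 0.66 beside 0.34 over all genes. The highest were Rps27a at 0.72, Rpl30 at 0.72, Rps2 at 0.71, Rps16 at 0.70 and Rpl10 at 0.70, and the lowest Rps27l at 0.54, Rpl22 at 0.57, Rpl38 at 0.59, Rplp1 at 0.61 and Rpl17 at 0.61. Rps27a had a permutation adjusted p of 0.0141 and Rps27l one of 0.0314, over 29 rats. The members are not independent of each other, since all follow the same libraries. They were also chosen with results known, so the count of members passing is a description and not separate support. By Spearman rho 73 of 75 members passed, beside 27% of all genes. Without the rats high 28 and medium 41, 69 members passed, beside 17.2% of all genes. Without the rats with a raised library 0 of 75 members passed, with a median r of -9.6e-05, beside 0.0429% of all genes.

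What each gene did apart from the family was compared by taking residuals from its regression on the other members. In these residuals 2 of 75 members agreed between the regions of a rat, beside 0.249% of all genes. They were Rpl17, with an r of 0.90 over 29 rats (permutation adjusted p = 0.00971), where the raw p of 1e-05 is the smallest that the permutations can give, and Rpl30, with an r of 0.87 (permutation adjusted p = 0.0482). Both passed also without the rats with a library low in neuron markers. Rps16 had an r of 0.65 (permutation adjusted p = 0.0825).

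Rpl30, a large subunit protein that is known in yeast to regulate its own splicing, was low in both regions of 1 rat. Medium 57 had 63.3 CPM in striatum, where the next lowest library had 106 CPM, and 44 CPM in cerebellum, where the next lowest had 86.1 CPM. Its residuals were -0.96 and -1.07 log2 units. Without that rat the residual r of Rpl30 was 0.72 over 28 rats. Rps16, of the small subunit head, had its highest striatal residual in medium 8 (0.31), where the cerebellar residual was 0.22.

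Rpl17, which lines the exit of the peptide tunnel, fell into 3 levels when its reads were set beside those of Rpl17-ps16, a row of the tables that is named as its pseudogene. Of the reads on the pair, Rpl17 held 49.6% to 55.3% in the striatum of 18 rats and 77.5% to 80.3% in the striatum of 10 rats. In the remaining rat, medium 40, it held 98.9%. The cerebellar libraries gave 47.3% to 58% in the same 18 rats, 77.5% to 81.8% in the same 10 rats and 99.3% in medium 40. The bands, with edges at 70% and 90%, were set after these values had been seen, and both regions of a rat fell in the same band in 29 of 29 rats, with a median difference between regions of 1.51 percentage points and a largest one of 7.46.

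**Figure D5:**
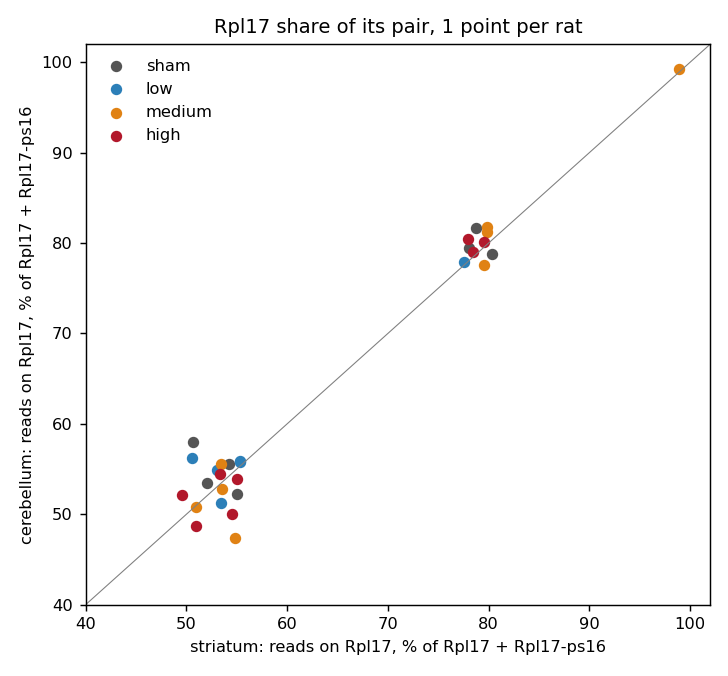
Reads on Rpl17 as a percentage of the reads on Rpl17 and Rpl17-ps16 together, striatum on the horizontal and cerebellum on the vertical axis, with 1 point per rat and colours for the implant groups; the line marks equal values. The 29 rats form separate clusters near 50%, near 80% and, for medium 40, near 99%, in both regions.

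The 2 larger bands held rats of all 4 groups. The lower band held 4 sham, 5 low, 4 medium and 5 high rats, and the middle band 3 sham, 1 low, 3 medium and 3 high rats. With the reads of Rpl17 and Rpl17-ps16 summed, the slope on the other members was 0.98 in striatum and 0.97 in cerebellum, against 0.79 and 0.89 for Rpl17 alone. The residual SD was 0.12 and 0.15 log2 units for the sum, against 0.40 and 0.41 for Rpl17 alone. How reads that match both rows were counted is not given in the sources used here, so the level of Rpl17 by itself is uncertain in all results above, and the cause of the 3 levels was not tested. Other members also have relatives in the tables: Rpl22l1, Rpl36al1, Rpl37l1 and Rps4y2 are separate rows outside the rule, and Rpl37, Rpl37a and Rps9 were not analysed here.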

How the data were processed

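The values are whole-number read counts per gene, deposited by the authors as 1 table per brain region. The submitters' processing notes name FastQC, HISAT2 and rn6; the counting tool, annotation, strand and multi-mapping settings are not stated there. By the labels' protocols, RNA was prepared with poly(A) capture or rRNA removal, without naming which for a library. The lowest gene total in each table was 10 reads.

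Counts were scaled with TMM factors, filtered with filterByExpr and fitted per region in edgeR 4.0.16 (R 4.3.3; robust quasi-likelihood, 4 groups), or over all 61 libraries for contrasts between regions. Log2 CPM has a prior count of 2. P-values are two-sided and Benjamini-Hochberg adjusted over all genes tested at a threshold of 0.05. In the fits within a region they measure the spread between rats. The fits over all 61 libraries treat both regions of a rat as independent, and only the fit with the animal as a replicate block keeps the pairing. On simulated data with 200 changed genes, high versus sham recovered 80% of 2-fold and 98.5% of 4-fold changes among 12210 and 12233 striatal genes, and 26% and 85.5% among 11902 and 11910 cerebellar genes. The changed genes were picked at random and each gene varied independently, with no library raised over a whole family. These shares therefore do not give the power for the ribosomal protein genes. DESeq2 1.42.0 and limma 3.58.1 were alternatives. The animal number in the labels pairs both regions of a rat.

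Members and lists were chosen with earlier results of these data known. Members were named by smallest p, by highest and lowest levels, slopes, correlations and rises, and by known roles. Rps16 and Rpl30 in residuals, and the start sites shown, were singled out after their values were seen. Symbols came from RefSeq by Gene ID. Single values of some genes are not reported here.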

Additional observations from a re-analysis of the deposited data

Results flagged for a closer look

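3 values stood far from the rest of their group, by a Dixon test of the gap to the nearest library against the group's range. Chance flags about 1 in 20 groups, and 8 groups were examined on 2 measures. Cerebellum sham 48 had a mean over the ribosomal protein genes of 10.03 log2 CPM, where the group of 7 had a median of 7.55, and the gap was 0.638 of the range. Its share of reads in these genes was 8.08%, beside a group median of 1.75%, with a gap of 0.784 of the range. Cerebellum medium 24 had a share of 7.26%, beside a median of 2.35% over 8 libraries, with a gap of 0.570 of the range. In the cerebellum high group, where 3 of 8 libraries were raised, no single library met the test.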

How the results depend on the processing

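In every loading comparison 0 members passed under all alternatives run: RLE factors, TMM factors without the members, DESeq2, limma-voom, other filters, a block for runs of 15 animal numbers, only the groups compared, without raised libraries, without libraries low in neuron markers, scaling on the members, and leaving out each library. Leaving out each library called 0 of all genes in each loading comparison too. The members' medians were then -0.29 to -0.01, 0.03 to 0.39 and -0.14 to 0.40 in striatum low, medium and high, and -0.65 to 0.25, -0.31 to 0.79 and 0.97 to 2.47 in the cerebellum. The direction turned without high 28 in striatum high, without sham 48 in cerebellum low, and without medium 24, sham 32, sham 3 or sham 34 in cerebellum medium. The cerebellum high median of 1.78 was -0.0875 with limma-voom and -0.30 without raised libraries; the cause was not tested. With limma-voom the direction turned also in striatum low (0.0711) and high (-0.00383) and cerebellum medium (-0.0286).

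The interaction median of 1.57 was 0.49 with the replicate block, on rats with both regions, and -0.36 without raised libraries; the genes called (1 in all) were 0 with the block, 6 with no filter, 4 with DESeq2 and 0 without libraries low in neuron markers. For the regions in sham, the 1 member called was 31 without raised libraries (8217 genes beside 5431), 14 scaled on the members (also without libraries low in neuron markers), 10 with the replicate block on that scale and 41 on it without raised libraries; the paired fit on the usual scale called 1.

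In the agreement of both regions, the 75 members called were 2 in residuals (29 genes beside 3673; 2 members and 13 genes without low-marker rats) and 0 without raised rats (5 genes); without the 2 farthest rats 69 members and 2003 genes passed. The r of the mean was -0.0125 without raised rats. The rho of slopes was 0.59 without raised libraries. Without raised libraries 108 of the 150 slopes moved by more than their error and 42 did not. Members at low counts, such as Rpl3l, are limited by depth.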
